A study of Homo sapiens with 2 samples.

Results

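Class code j marks transcript models that share at least 1 splice junction with an annotated transcript but join their exons in another pattern. In the deposited isoform table, 6303 isoforms carried this code and had a quantification status of OK in both libraries, of 63236 isoforms in all. They lay in 2980 genes, which also held 15858 isoforms with class code =, whose intron chain matches an annotated transcript. Class code and status, not expression, chose the members. Of these, 3637 were listed at 0 in both libraries, so the code alone does not show that a form was present in these cells. A further isoform with code j, of DGCR2, failed quantification in the LPA library and was left out. The submitters set untreated HCT-116 cells, a human colorectal carcinoma line, against HCT-116 cells that were starved of serum and then kept for 24 h with 10 µM lysophosphatidic acid (LPA), a bioactive lipid that acts through G protein-coupled receptors. The labels do not say whether the control cells were starved too. Each group had 1 library of poly(A)-selected RNA, so no difference between them has a replicate check, no test was possible, and treatment and library cannot be told apart. A call here describes these libraries and not the condition.

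Most human genes with several exons yield several mature transcripts, because the spliceosome can skip an exon, keep an intron, or choose among nearby donor and acceptor sites. An acceptor ends in the bases AG, and where AG occurs again just downstream both copies can serve, which adds or removes a single codon. Changes that are a multiple of a codon's length keep the reading frame in coding sequence, whereas others shift it and often bring in an early stop codon that marks the transcript for nonsense-mediated decay.

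The length of a j isoform set against its nearest RefSeq transcript gives a first view of what sets it apart. Of the 5477 members on primary chromosomes, 4033 were shorter than the nearest RefSeq transcript, 1436 were longer and 8 had the same length. The median size of the difference was 215 nt. The most frequent size was 3 nt, found in 101 members of 99 genes, of which 57 were shorter and 44 longer. The next sizes were 48 nt with 29 members and 6 nt and 12 nt with 28 each. The GENCODE annotation, release 29, placed a pair of acceptors 3 nt apart in 74 of the 96 genes it held from this group (77.1%). Such a pair stood in 372 of the 2732 other genes with a j isoform (13.6%) and in 1437 of all 22644 genes with several transcripts (6.35%). GENCODE and the models of the members may rest on the same human transcript evidence, so these shares describe the overlap of annotations. All 89 pairs gave 3 bases that ended in AG. Those bases lie directly before the downstream acceptor, where AG is usual, so this count follows from the choice of pairs. Of the 89, 79 lay in coding sequence.

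The sequences below show that step of 3 bases for the 8 members at a mean of 1 FPKM or more (fragments per kilobase of transcript, scaled to the mapped fragments of the library) in genes with exactly 1 such coding pair. They were picked after their values were seen. Each line gives 20 bases of the upstream exon in lower case, the 3 bases between both acceptors in capitals, and 20 bases that follow, on the transcript strand. They come from GENCODE transcripts on GRCh38, the assembly that hg38 names. The deposited table gives no junctions, so whether a member uses the acceptor shown was not determined.
FLII: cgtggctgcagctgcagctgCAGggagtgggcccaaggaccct
NOLC1: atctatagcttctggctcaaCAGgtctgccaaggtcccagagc
ADPGK: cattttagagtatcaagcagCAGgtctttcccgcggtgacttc
AMOTL2: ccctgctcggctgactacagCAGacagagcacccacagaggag
GATAD2A: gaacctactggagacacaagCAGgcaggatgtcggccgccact
DNAJC4: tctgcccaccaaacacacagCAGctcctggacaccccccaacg
DCAF4: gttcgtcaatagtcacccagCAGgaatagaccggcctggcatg
RNF19B: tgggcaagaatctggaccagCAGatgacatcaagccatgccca
In all 8 the capitals, whose AG follows from the choice of pairs, read CAG. Their positions are chr17:18251814-18251816 on the minus strand for FLII, chr10:102157186-102157188 on the plus strand for NOLC1 and chr15:72752893-72752895 on the minus strand for ADPGK. AMOTL2 has them at chr3:134358717-134358719 on the minus strand, GATAD2A at chr19:19501118-19501120 on the plus strand and DNAJC4 at chr11:64232701-64232703 on the plus strand. DCAF4 has them at chr14:72954161-72954163 on the plus strand and RNF19B at chr1:32948364-32948366 on the minus strand.

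Members 3 nt from their nearest transcript differed widely in level. The FLII isoform, from the gene of an actin-binding gelsolin family protein, was 3 nt shorter and the most abundant of the 12 such members at a mean of 1 FPKM or more. Its control value was 9.50 FPKM (deposited bounds 3.81 to 15.2) and its LPA value 13.3 FPKM (6.19 to 20.4). The level of confidence behind the deposited bounds is not given in the sources used here. NOLC1, a nucleolar chaperone of small nucleolar ribonucleoproteins, had a 3-nt longer isoform at 4.82 FPKM in control and 3.47 FPKM in LPA. ADPGK, the ADP-dependent glucokinase, had one at 4.17 and 3.03 FPKM. The bounds of these 3 members overlapped between the libraries.

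Of the 12 members, only those of GATAD2A, DNAJC4, PHRF1 and KANSL1 had bounds apart, each lower in LPA. Over all isoforms tested, 1.8% were at least 2-fold lower in LPA with separate bounds, and nothing is read from so few members. All but KANSL1 stood near 0 in the LPA library. The KANSL1 isoform, 3 nt longer and in a locus with KANSL1-AS1, had 2.45 FPKM in control (1.13 to 3.76) and 0.385 FPKM in LPA (0 to 0.910). GATAD2A, a subunit of the NuRD chromatin remodelling complex, had its 3-nt longer isoform at 2.63 FPKM in control (0.905 to 4.36) and 0.00472 FPKM in LPA (0 to 0.0876). DNAJC4, which encodes a J-domain protein, had its isoform at 2.51 and 0.0117 FPKM. The 3-nt shorter isoform of PHRF1, a PHD and RING finger protein, had 5.55 FPKM in control (3.31 to 7.80) and 0.00217 FPKM in LPA (0 to 0.0470). In the opposite order, the 3-nt longer isoform of RNF19B, a RING-type ubiquitin ligase, had 0.414 FPKM in control and 1.85 FPKM in LPA. AMOTL2, an angiomotin family scaffold protein, had 1.24 and 2.42 FPKM, and the DCAF4 isoform had 0.742 and 1.77 FPKM. ZFAND2B, with a 3-nt longer isoform, had 1.39 FPKM in control and 5.05 FPKM in LPA. The RBM10 isoform, 3 nt shorter, was lower in LPA, with 2.36 and 0.487 FPKM. The bounds of RNF19B, AMOTL2, DCAF4, ZFAND2B and RBM10 overlapped between the libraries.

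**Figure D1:**
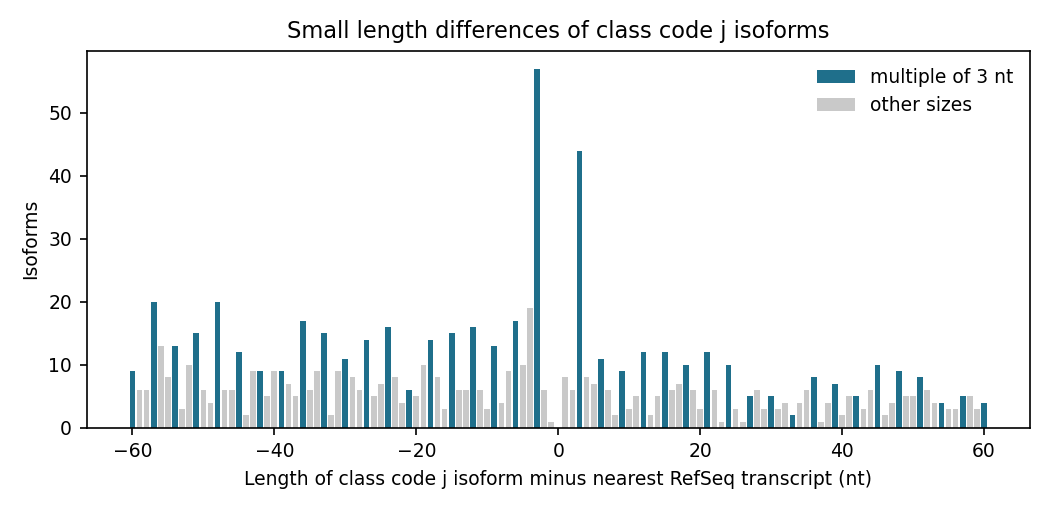
Number of class code j isoforms (vertical axis) at each length difference from the nearest RefSeq transcript, from 60 nt shorter to 60 nt longer (horizontal axis, nt), members of equal length not shown. Bars for multiples of 3 nt are dark and all others pale; the tallest bars are 57 isoforms 3 nt shorter and 44 isoforms 3 nt longer.

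Differences by a multiple of 3 nt made up 43.8% of the primary-chromosome members, with 28.3% and 27.9% leaving a remainder of 1 and 2 nt. The share was 57.5% among the 537 members that differed by 1 to 30 nt, 46.5% among the 1597 at 31 to 150 nt, 41.2% among the next 1166, up to 300 nt, and 39.6% among the 2169 above that. The share was much the same at each expression level. Members listed at 0 in both libraries had 43.1%, those above 0 but under 1 FPKM 44.9%, and the 418 at 1 FPKM or more 42.3%.

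A larger step was a shortfall in length that matched a whole exon. Of 3879 shorter members whose nearest transcript GENCODE also lists, 523 (13.5%) were shorter by exactly the length of 1 internal exon of it. The exon was coding in 442, and a multiple of 3 nt long in 274 of these (62.0%). In all, 50 of the 523 reached a mean of 1 FPKM. The next lines show 3 such exons in capitals between 20 bases of each neighbouring exon, again on the transcript strand of GRCh38 and picked after the values were seen. They belong to PTP4A2, the most abundant such member, and to MIF4GD and HCFC1R1, whose exons also keep the frame.
PTP4A2: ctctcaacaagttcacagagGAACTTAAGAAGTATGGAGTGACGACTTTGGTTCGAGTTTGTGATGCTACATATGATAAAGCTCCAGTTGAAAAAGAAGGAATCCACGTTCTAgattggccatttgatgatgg
MIF4GD: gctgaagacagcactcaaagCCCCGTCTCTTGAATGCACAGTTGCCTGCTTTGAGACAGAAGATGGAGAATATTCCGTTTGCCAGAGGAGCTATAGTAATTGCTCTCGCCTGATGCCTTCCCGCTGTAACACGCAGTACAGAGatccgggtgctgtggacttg
HCFC1R1: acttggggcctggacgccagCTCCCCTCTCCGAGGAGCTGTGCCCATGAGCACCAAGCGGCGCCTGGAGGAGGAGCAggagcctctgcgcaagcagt
These are the 93-nt exon at chr1:31915895-31915987, the 123-nt exon at chr17:75269347-75269469 and the 57-nt exon at chr16:3023474-3023530, all on the minus strand. A match in length does not show that the member lacks that exon, since another change can have the same size. How often lengths match by chance was not tested.

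PTP4A2, which encodes the prenylated phosphatase PRL-2, had the isoform 93 nt short of its nearest transcript at 37.4 FPKM in control (21.98 to 52.7) and 33.4 FPKM in LPA (18.3 to 48.5). It held 44.3% and 36.2% of the gene's FPKM and led the gene in neither library. The MIF4GD isoform stood at 6.47 FPKM in control (0 to 15.0) and 5.52 FPKM in LPA (0 to 13.2). The HCFC1R1 isoform stood at 5.30 FPKM in control (0 to 11.6) and 4.70 FPKM in LPA (0 to 11.1). For both, the bounds reach 0 in each library, so these values do not show that the forms were present. All 3 pairs of bounds overlapped. APH1A, a subunit of the gamma-secretase complex, had an isoform shorter by the length of a 171-nt coding exon at 1.68 FPKM in control (0 to 5.42) and 14.7 FPKM in LPA (4.20 to 25.1), and these bounds overlapped as well.

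Most members had little or no expression in these cells. In all, 3637 of the 6303 (57.7%) were listed at 0 in both libraries, against 6885 of the 15858 = isoforms of the same genes (43.4%). On primary chromosomes the shares were 51.3% and 34.3%. Of the members, 824 lay on alternate haplotype contigs and were all listed at 0, among them 147 of the 156 j isoforms of KIR3DS1, a killer cell receptor gene that held the most members. A mean of at least 1 FPKM was reached by 419 members (6.65%) in 381 genes and by 3576 of the = isoforms (22.6%). Only 30 members reached 10 FPKM. Summed over all members, j isoforms carried 2057 FPKM in control and 2117 FPKM in LPA, which was 0.287% and 0.299% of all FPKM, and 3.69% and 3.80% of the FPKM of their own genes.

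From the smallest values of long isoforms, about 16700000 fragments stood behind the control library and 15700000 behind the LPA library. An isoform of 2 kb at 1 FPKM then rested on about 33.3 and 31.4 fragments, shared out among overlapping isoforms by the quantification model. Of 9 epithelial marker genes, 6 had at least 1 FPKM in both libraries, with summed levels of 2012 and 2653 FPKM. CDX1, VIL1 and LGALS4 did not, and 2 of these were listed at 0. Fibroblast, immune and endothelial markers, 5 genes each, all stayed under 0.3 FPKM. The part of the higher epithelial sum in the results below was not tested.

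The 12 most abundant members ranged from a mean of 68.4 FPKM downwards and came from 11 genes, of which those at the top are given here. HNRNPK, an RNA-binding protein of the hnRNP family on chromosome 9, held the highest, an isoform 95 nt shorter than its nearest transcript. It had 55.7 FPKM in control (21.7 to 89.8) and 81.0 FPKM in LPA (40.8 to 121). Its leading = isoform had 74.1 and 67.5 FPKM, so the leading isoform was = in control and j in LPA, with all bounds overlapping. HNRNPK and RBMX are known to have near-identical processed copies in the genome, and whether reads that also match a copy touch their values was not tested.

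HAS3, a hyaluronan synthase, had a j isoform 133 nt shorter at 45.4 FPKM in control (27.5 to 63.2) and 46.2 FPKM in LPA (28.0 to 64.3). The gene's leading = isoform stood at 2.14 and 1.09 FPKM, below the j isoform's bounds in both libraries, and j isoforms summed to 94.2% and 97.5% of the gene. The locus, chr16:69105564-69132590, also holds CHTF8, and the library kit does not mark strand, so reads of neighbouring or overlapping genes could not be told apart there.

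NFKB2, the p100 and p52 subunit of NF-kappa-B, had an isoform 287 nt shorter at 20.6 FPKM in control and 25.2 FPKM in LPA. VPS51, a subunit of vesicle tethering complexes, had an isoform 1594 nt longer at 20.7 FPKM in both, in a locus shared with TM7SF2. DMKN, a secreted epithelial protein, had short isoforms of 449 nt at 31.4 and 29.2 FPKM and of 492 nt at 20.1 and 17.4 FPKM, with wide bounds. MAZ, a zinc finger transcription factor, had 16.6 and 19.1 FPKM. None of these differed between the libraries beyond its bounds.

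In most genes with a j isoform, the annotated forms carried the expression. Among 1212 genes with a summed level of at least 5 FPKM in both libraries, the median share on j isoforms was 0.123% in control and 0.108% in LPA, and the 90th percentile was 25.3% in both. The j share was under 1% in both libraries for 602 genes, of which 325 had every j isoform at 0. It was at least 10% in both for 178 genes and at least 50% in both for 40, of which 36 had a single locus. Across the 1212 genes the j shares of the 2 libraries had a Pearson correlation of 0.874, a description over genes quantified with 1 set of models.

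**Figure D2:**
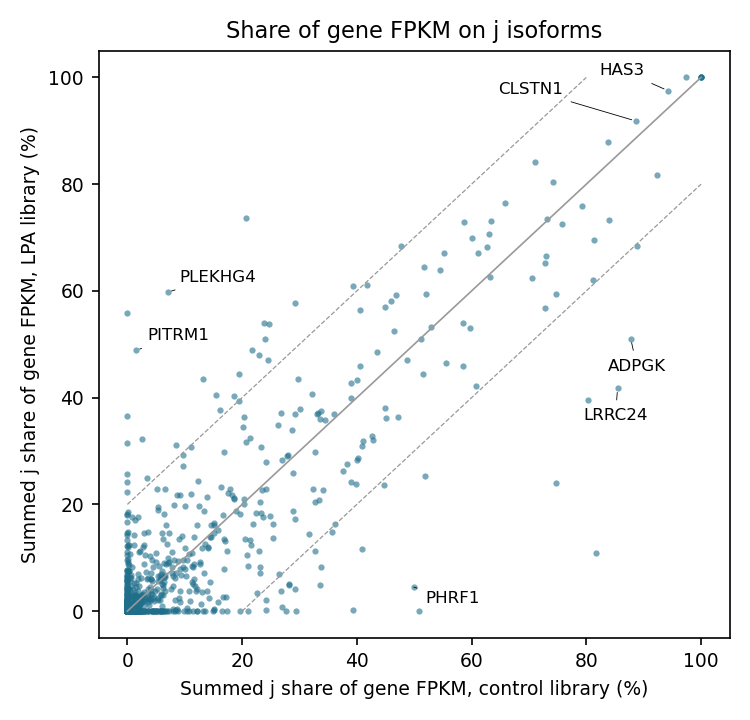
Each point is 1 of 1212 genes, with the share of its summed FPKM on class code j isoforms in the control library (horizontal axis, %) and in the LPA library (vertical axis, %). The solid line marks equal shares and the dashed lines 20 points of difference. Of the points, 602 lie under 1% on both axes, HAS3 and CLSTN1 lie near the top and PITRM1 and PHRF1 lie far from the line.

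Some genes had at least 50% of their FPKM on their j isoforms in sum in both libraries, and the 12 of these with the highest sums at a single locus are described here and with HAS3 above. CLSTN1, a calsyntenin that links cargo to kinesin, had its j isoform, 87 nt shorter than its nearest transcript, at 26.3 FPKM in control (18.1 to 34.5) and 28.6 FPKM in LPA (19.9 to 37.3), with the = isoform of highest mean, called leading here, at 3.38 and 2.54 FPKM. TNPO2, a nuclear import receptor, had 13.3 and 14.1 FPKM on j, 83.8% and 87.8% of the gene. GAS2L1, a linker of actin and microtubules, had 16.5 and 15.9 FPKM on its j isoform, while its leading = isoform stood at 2.07 FPKM in control and 5.29 FPKM in LPA. In these 3 genes the bounds of the j and the = isoform did not overlap in either library. The CLSTN1 locus also holds PIK3CD.

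YBEY, a mitochondrial ribosomal RNA endonuclease, had its j isoform of 728 nt at 27.5 and 24.8 FPKM, against 8.28 and 5.14 FPKM for the annotated form. Its j and = bounds were apart in both libraries. SLC39A6, a zinc importer, had 21.7 FPKM in control (13.2 to 30.2) and 27.8 FPKM in LPA (18.4 to 37.3) on an isoform 798 nt shorter, and its = isoform had 15.3 and 10.3 FPKM. The j share was 58.7% and 73.0%, and only in LPA were the bounds of its j and = isoforms apart. FUBP1, a regulator of MYC transcription, had 20.03 and 20.7 FPKM on j and 9.46 and 12.3 FPKM on its leading = isoform, with overlapping bounds in both.

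MIB2, a ubiquitin ligase of the Notch pathway, carried 63.4% and 73.1% on 3 j isoforms. AP1G2, a clathrin adaptor subunit in a locus shared with THTPA, carried 65.9% and 76.4%. YIPF1, a Golgi membrane protein, had 51.1% and 50.9%, and ZDHHC20, a palmitoyltransferase in a locus with MIPEPP3, had 54.5% and 64.0%. ADPGK had the largest share difference of the 12 genes: its j share was 87.7% in control and 51.1% in LPA. Its leading j isoform, 289 nt shorter, had 7.71 and 5.27 FPKM with overlapping bounds, while its = isoforms summed to 1.69 FPKM in control and 7.95 FPKM in LPA. The = isoform with the highest mean had 0.322 FPKM in control (0 to 0.952) and 5.21 FPKM in LPA (2.47 to 7.96), with bounds apart. Another = isoform led in control, with 1.37 FPKM there and 2.74 FPKM in LPA and overlapping bounds. The ADPGK member 3 nt longer gave 30.2% and 18.6% of the gene.

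**Figure D3:**
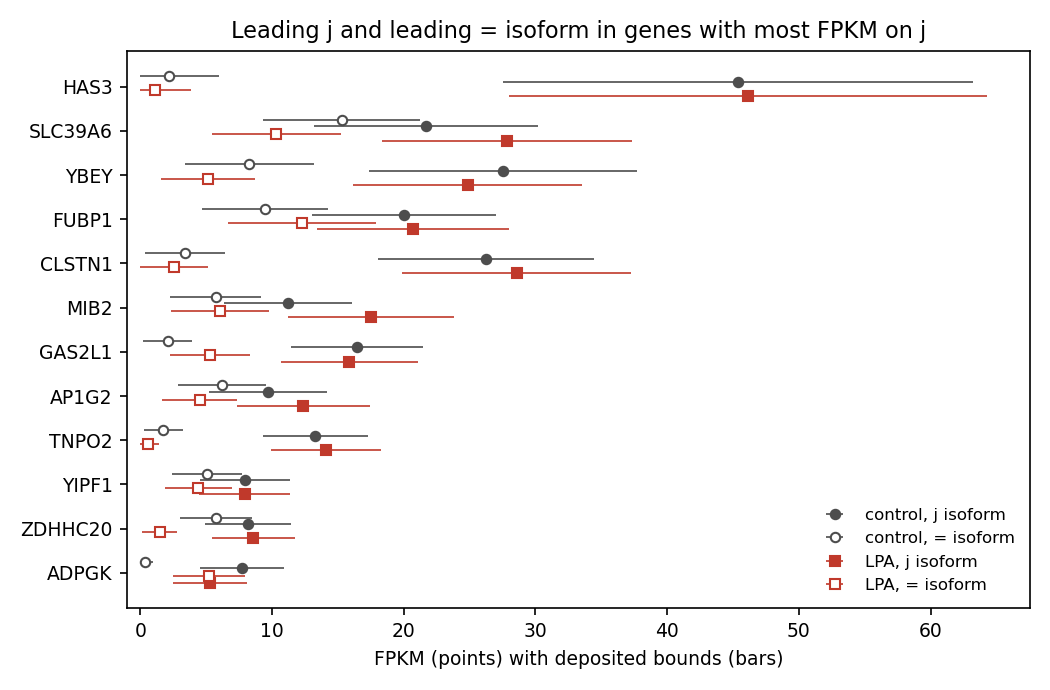
FPKM (horizontal axis) of the j isoform (filled) and the = isoform (open) with the highest mean of both libraries in the control library (grey circles) and the LPA library (red squares) for 12 genes with at least 50% of their FPKM on j in both; bars are the deposited bounds. HAS3 is highest at 45.4 and 46.2 FPKM, and the = isoform drawn for ADPGK, which did not lead the = isoforms in control, stands at 0.322 FPKM in control against 5.21 FPKM in LPA.

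Against the LPA library, the 419 members at a mean of at least 1 FPKM were compared by log2((LPA FPKM + 1)/(control FPKM + 1)), which understates changes of low values. A member counted as higher or lower in LPA where this ratio passed 2-fold and the deposited bounds did not overlap. By that rule 24 members were higher (5.73%) and 26 lower (6.21%), in 49 genes. Over all 16999 isoforms tested the rule called 2.19% higher and 1.8% lower, and among the = isoforms of the same genes 139 of 3576 (3.89%) and 128 (3.58%). The median log2 ratio was 0.04 for j, 0.03 for = and 0.00 for all isoforms. The range from the 10th to the 90th percentile was wider for j, from -1.31 to 1.33, than for =, from -0.73 to 0.82. The Pearson correlation of log2(FPKM + 1) between the libraries was 0.538 over the 419 members and 0.868 over the 3576 = isoforms, each a description over isoforms that share the same reads and fit. The j isoforms were also lower, with a median of 2.26 FPKM against 3.56 FPKM.

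Almost all called members were present in 1 library and nearly missing from the other: 47 of the 50 had a lower value under 1 FPKM and 37 under 0.1 FPKM. They therefore passed the filter through their higher library alone, and their number supports nothing beyond the listing. No gene sum of theirs passed 2-fold, and neither did any over the 1212 genes used for shares. The log2 ratios of the called members' gene sums ran from -0.60 to 0.54 with a median size of 0.17, against 0.16 over the 1212 genes. In each gene, the isoform with the largest FPKM change the other way was taken as a partner, so its direction is set by the choice; for 1 member, of INTS8, no isoform moved the other way. The partner was a = isoform in 46 cases, shared the start group (transcripts from one start site) in 35 and lay within 150 nt in length in 34. The isoform taken for INTS8, at 0 in both libraries, is counted in the 35. Over all genes with members, j isoforms made up 28.4% of the j and = isoforms. Of the 6303 members, 6294 share a start group with some = isoform, so nothing is read from these counts. Between about 45.5 and 1033 fragments stood behind the higher value of the called members, with a median of 199.

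**Figure D4:**
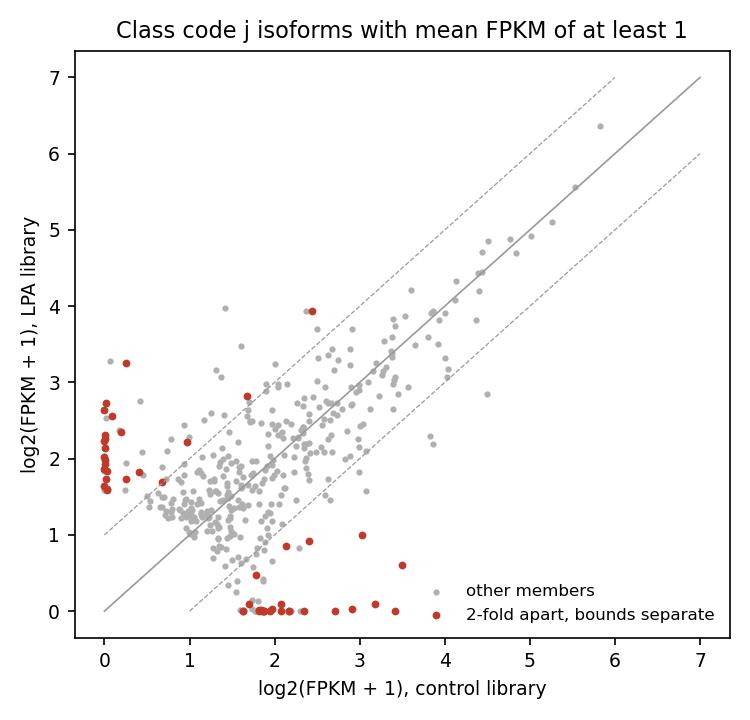
log2(FPKM + 1) in the control library (horizontal axis) and the LPA library (vertical axis) of the 419 class code j isoforms at a mean of 1 FPKM or more. Red points are the 50 members past 2-fold (dashed lines) with separate bounds; most of them lie along an axis, at about 0 in 1 library.

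Among the members lower in LPA, the 10 with the most negative log2 ratios are described first. RBMX, an hnRNP family protein, had a j isoform at 9.66 FPKM in control (0.871 to 18.4) that was listed at 0 in LPA (0 to 0.0559). The gene summed to 117 and 88.0 FPKM, so this isoform was 8.23% of it in control. ZNF692, a zinc finger protein, had its j isoform at 8.04 FPKM in control and 0.0650 FPKM in LPA, and a = isoform 97 nt longer had 10.8 and 21.8 FPKM. TCF3, an E-protein transcription factor, had 6.53 and 0.0210 FPKM, with a gene sum of 49.2 and 45.7 FPKM.

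XRCC4, of non-homologous end joining, had a j isoform at 3.50 FPKM in control (1.23 to 5.77) and 0.000152 FPKM in LPA, and its = partner had 13.1 and 15.0 FPKM. SPIDR, a scaffold in homologous recombination, had 3.50 and 0.000886 FPKM, and its partner, 37 nt longer, 2.001 and 6.68 FPKM. APTX, a repairer of abortive ligation ends, had 3.20 and 0.00375 FPKM, with a partner at 0.163 and 7.39 FPKM. The 3 gene sums stayed within a log2 ratio of -0.14 to 0.20.

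In PHRF1 and TRIM2, a ubiquitin ligase, the partner was a = isoform just 3 nt longer. The PHRF1 partner had 2.75 FPKM in control and 7.27 FPKM in LPA against a gene sum of 11.7 and 11.5 FPKM. In TRIM2 the j isoform had 4.08 FPKM in control and 0.000438 FPKM in LPA, and the partner 3.53 and 6.45 FPKM. MVP, the major vault protein, had opposite moves of a pair of j isoforms that differ by 41 nt. The 4648-nt isoform had 10.3 FPKM in control (5.05 to 15.6) and 0.516 FPKM in LPA (0 to 1.67). The 4607-nt isoform had 4.44 FPKM (1.00 to 7.87) and 14.3 FPKM (8.17 to 20.4). Both are over 1.6 kb longer than the nearest transcript, in a locus that also holds PAGR1. ARHGAP39, a GTPase-activating protein, had 7.16 and 1.01 FPKM, the only one of these 10 not under 1 FPKM in its lower library, and a = partner from another start group had 1.65 and 9.16 FPKM.

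Among the members higher in LPA, PITRM1, a mitochondrial peptidase, led with 0.193 FPKM in control (0 to 0.653) and 8.59 FPKM in LPA (5.10 to 12.1), a log2 ratio of 3.01 on the pseudocount scale. Its gene sum was 13.2 and 17.6 FPKM. ADAR, which edits adenosine to inosine in double-stranded RNA, had 0.0166 and 5.66 FPKM, and its partner = isoform, 135 nt longer, 17.7 and 14.5 FPKM. GSDMB, a gasdermin, had 0.000408 and 5.24 FPKM, and its partner, 9 nt longer, 2.01 and 0.00504 FPKM.

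Others of the 10 highest had the same order of values, near 0 in control. IGF2BP2, an mRNA-binding protein, had 0.00213 and 3.80 FPKM. The isoform of CUX1, a homeobox factor, was listed at 0 in control and had 3.69 FPKM in LPA, while its = partner had 5.69 FPKM in control and was listed at 0 in LPA. AGAP3, an Arf GTPase-activating protein, had 0.142 and 4.09 FPKM, and PLEKHG4, a guanine nucleotide exchange factor, 0.000753 and 3.41 FPKM, or 59.8% of its gene in LPA. SLC26A6, an anion exchanger, was listed at 0 in control and had 3.06 FPKM in LPA. The long noncoding LOC100288798 had 0.0634 and 4.89 FPKM, and its partner was another j isoform.

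**Figure D5:**
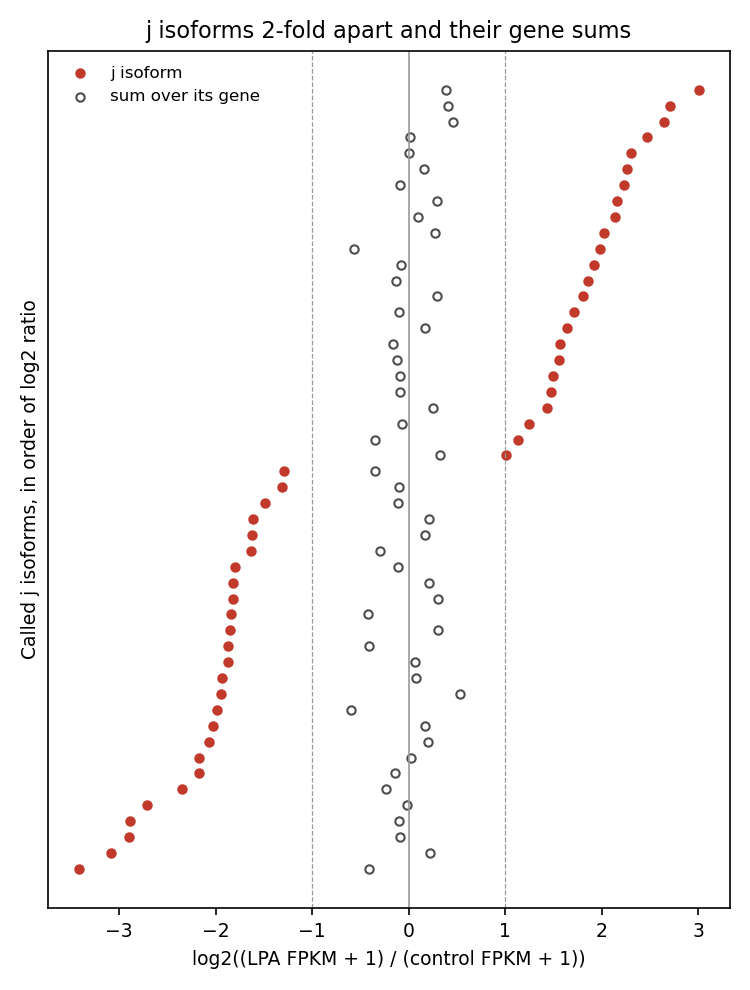
log2((LPA FPKM + 1)/(control FPKM + 1)) on the horizontal axis for the 50 called j isoforms (red) and for the sum over each gene's isoforms (open circles), 1 row per isoform in order of its ratio; dashed lines mark 2-fold. The isoforms lie outside the dashed lines by the rule that chose them, and all gene sums lie between -0.60 and 0.54.

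Measured as a share of the gene, 29 of 2520 j isoforms were at least 20 percentage points higher in LPA (1.15%) and 28 lower (1.11%). Over all 19662 isoforms of genes with several isoforms the shares were 2.9% and 2.87%, and for the = isoforms of the same genes 3.25% and 3.22%. Most j isoforms were a small part of their gene: 470 of the 2520 held at least 5% of it in either library, against 3308 of 6608 = isoforms. Among these, 57 j isoforms (12.1%) and 428 = isoforms (12.9%) differed by at least 20 points. The 5% cut uses the same shares as the call, and any isoform that differs by 20 points passes it. Nothing is therefore read from these rates. The leading isoform differed between the libraries in 216 of the 1212 genes (17.8%), against 11.4% of all 4420 genes with several isoforms. It was = in both libraries in 1117 genes and j in both in 46. It was = in control and j in LPA in 25, and j in control and = in LPA in 24. Only 49 of the 216 genes therefore changed between j and =, and the others changed between isoforms of the same class. The 1212 genes and the 4420 genes were not matched for their number of isoforms. Whether j isoforms account for the higher rate was not tested.

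Beside PHRF1 and PITRM1, whose values are given above, the j isoforms of several other genes differed by over 20 points of share. KDM2A, a histone H3 lysine 36 demethylase, had a j isoform 2460 nt shorter at 29.2% of the gene in control and 57.7% in LPA (3.10 and 6.92 FPKM). SS18, a subunit of the BAF remodelling complex, went from 23.0% to 48.1% (4.71 and 8.98 FPKM), with its = isoform at 13.5 and 6.79 FPKM. ZMIZ2, a transcriptional coregulator, had 24.2% and 0.189% (2.92 and 0.0241 FPKM). The bounds of the KDM2A and SS18 j isoforms overlapped between libraries, and those of the ZMIZ2 isoform did not. Differences in the leading isoform did not need so large a step in the share of the leading j isoform. PSIP1, a chromatin-binding coactivator, had its leading isoform as j in control at 8.40 FPKM and = in LPA at 12.9 FPKM. AGAP3 had j isoforms at 39.3% and 60.9% in sum, with its leading j isoform at 34.8% and 36.3%. RXRB, a retinoid X receptor in a locus with SLC39A7, had j isoforms at 33.2% and 37.1%. Both genes had = leading in control and j in LPA. DMKN went the other way, from 55.5% to 46.5%. For PSIP1, AGAP3, RXRB and DMKN, the bounds of the leading j and the leading = isoform overlapped in both libraries.

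SLC39A9, a zinc transporter, had its j isoform at 24.6% and 47.1% (4.64 and 11.99 FPKM), and PICALM, a clathrin assembly protein, at 4.75% and 26.7% (0.907 and 4.41 FPKM). RHBDF2, an inactive rhomboid that escorts the ADAM17 protease, had 51.9% and 25.3% (9.52 and 5.27 FPKM). ADCK4, a coenzyme Q biosynthesis kinase, had 88.8% and 68.3% (9.49 and 6.90 FPKM). The bounds of these 4 isoforms overlapped between the libraries, as did those of BROX, at 36.2% and 15.1%. LRRC24, a leucine-rich repeat protein, had 85.4% and 41.8% on an isoform 1118 nt longer than its nearest transcript, in a locus with LRRC14. PCED1A, at 24.7% and 53.7%, and TLE2, at 5.59% and 30.3%, also share their loci with other expressed genes. The bounds of these last 3 isoforms overlapped between the libraries too.

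Members of 8 gene lists were mostly low, and 13 reached the mean of 1 FPKM that the 2-fold rule needs. None of the 13 passed the rule in either direction, and with so few tested nothing is read from that beside the 2.19% and 1.8% of all isoforms. The list of SR proteins and hnRNPs, which choose splice sites, had a j isoform in 10 of its 42 genes in the table, and 7 of the 29 members reached 1 FPKM, with a median log2 ratio of 0.35. Besides HNRNPK, RBFOX2, an RNA-binding regulator of alternative exons, had 52.0% and 59.5% of its FPKM on j, led by an isoform 12 nt shorter at 6.38 and 8.38 FPKM. PTBP3, a polypyrimidine tract-binding protein, had 40.5% and 56.4%, and SRSF1, a founding SR protein, 14.001% and 11.8%.

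Epithelial splice programme genes held a j isoform in 13 of 21, of which 2 members reached 1 FPKM. OSBPL3, an oxysterol-binding protein, had its member 93 nt shorter at 0.911 FPKM in control (0.329 to 1.49) and 2.45 FPKM in LPA (1.48 to 3.41). These bounds overlapped. The member made up 21.7% and 56.8% of the gene, whose sums of 4.19 and 4.31 FPKM lay under the 5 FPKM used for shares. MAGI1, a tight junction scaffold, had 2.52 and 1.99 FPKM. The NF2 member, from the merlin tumour suppressor gene, was listed at 0 in control and had 1.16 FPKM in LPA, a mean under 1 FPKM.

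The mitosis list had members in 5 of 23 genes, 3 of them at a mean of 1 FPKM or more, and the bounds of all 3 overlapped between the libraries. PRC1, which bundles spindle midzone microtubules, had 8.94 and 8.19 FPKM on its main member, and KIF23, the midzone kinesin, 3.83 and 3.87 FPKM. NUSAP1, a spindle-associated protein, had 5.27 FPKM in control (0.938 to 9.60) and 1.75 FPKM in LPA (0 to 4.12). MCM7, a subunit of the replicative helicase, held the 1 DNA replication member at 1 FPKM or more, with 9.63 and 7.40 FPKM, or 7.96% and 4.69% of the gene, in a locus shared with AP4M1, CNPY4 and TAF6.

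In the other lists no member reached a mean of 1 FPKM. Nonsense-mediated decay had members in 2 of 16 genes, one of them RNPS1, a splicing activator, and the ATF4 and amino acid response list in 3 of 22. In SLC3A2, the heavy chain of amino acid transporters, the gene summed to 148 FPKM in control and 271 FPKM in LPA while its j isoform was listed at 0 in both. Among 28 actin and adhesion genes, 7 had members, with CALD1, an actin-binding protein, highest at 0.779 and 0.878 FPKM. ACTG1, cytoplasmic actin, had only 0.178 and 0.143 FPKM on j of 1916 and 2868 FPKM. Of the LPA receptors and enzymes, 2 of 19 genes in the table had members: LPAR6, listed at 0 throughout, and ENPP2, the LPA-producing enzyme autotaxin, whose gene sum was under 0.2 FPKM in both.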

How the data were processed

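Poly(A) RNA of HCT-116 cells was sequenced from TruSeq V2 libraries, which do not mark strand, per the labels' protocols. Cuffdiff 2.2.0, Cufflinks and TopHat2 2.0.12, with bcl2fastq 2.16.0.10 and the hg38 build, are listed in the submitters' processing notes. The deposited values are FPKM per isoform with lower and upper bounds, and the authors gave each a status and class code, per the file headers. How libraries were scaled is not given in the sources used here.

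Members and gene lists were chosen with earlier results of these data known. Python 3.11.15 with pandas 2.3.3 and numpy 2.4.6 computed shares of the sum over a gene symbol and log2 ratios with a pseudocount of 1 FPKM. A member was called at 2-fold with separate bounds, in isoforms of mean FPKM of at least 1. Shares used genes of at least 5 FPKM in both libraries, apart from the one printed for OSBPL3. The script was tested on simulated data. Fragments were estimated from the smallest FPKM times length of isoforms over 2000 nt that are alone in their locus. Lengths were set against the nearest RefSeq transcript in the table, and exons and sequences come from GENCODE release 29 on GRCh38, matched by symbol for 2853 of 2980 genes.

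Named were isoforms of at least 300 nt by rank: 12 by mean FPKM, 12 single-locus genes with at least 50% on j by gene sum, 10 per direction by log2 ratio, 10 per direction by share difference in genes of at least 10 FPKM, 10 genes with a changed leading isoform by sum, and 4 genes per list by j FPKM. With 1 library per group no p-value was computed. Members named for 3-nt or exon-length differences were chosen after their values were seen. Some genes that these rules select are not reported here.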

Additional observations from a re-analysis of the deposited data

How the results depend on the processing

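With 24 members called higher and 26 lower, a pseudocount of 5 gave 4 and 6, a mean of at least 5 FPKM gave 1 and 1, no filter gave 47 and 52, and leaving the bounds unused gave 55 and 53. Shares used a gene sum of at least 5 FPKM: 40 genes with at least 50% on j in both libraries, 46 with a j isoform leading in both, 49 with a leading isoform that changed between j and =, and 29 members 20 points higher and 28 lower. A gene sum of at least 1 FPKM gave 70, 87, 118, 86 and 91, with a median LPA share of 0.0571%. A gene sum of at least 20 FPKM gave 6, 7, 5, 1 and 2, with a median LPA share of 0.0613%. A step of 10 points gave 86 and 91. Primary chromosomes alone, chosen after seeing the data, changed no count. No paired analysis was possible because each group has 1 library, and no replicate could be left out for the same reason. Depth limits members under 1 FPKM, which rest on fewer than about 33.3 fragments at 2 kb. The error of dividing reads among isoforms that differ by a few bases was not tested.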
